A study of Homo sapiens with 8 samples.

Results

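The comparison is of CAL-27 cells exposed to enzastaurin with untreated CAL-27 cells, across all genes that the arrays could test. Its members are the 3 samples whose titles name enzastaurin and the 3 whose titles name control, 6 of the 8 arrays of the series. The other 2 arrays are of the same cells given a second inhibitor that the labels call only Go, at a dose they do not state. CAL-27 is an established human line from a squamous carcinoma of the oral cavity. The cells were grown in DMEM with 10% FBS, and all groups, the controls included, went without serum for 24 h before treatment. Enzastaurin was present at 10 µM for 24 h. By the labels, total RNA was labelled with Cy3 and hybridised to single-colour oligonucleotide arrays, and 12780 genes had a probe bright enough to test. No label says that the 3 samples of a group were separate cultures, so every p-value reflects the spread of these arrays alone, which may be technical.

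Protein kinase C is a family of serine/threonine kinases that relay signals from receptors which activate phospholipase C. The conventional members need both calcium and diacylglycerol, a further class needs diacylglycerol alone, and the atypical members need neither. In stratified epithelium the pathway is known for driving keratinocytes from the basal towards the differentiated state, and in many cells for inducing genes through the transcription factor AP-1. Enzastaurin competes with ATP. It was developed against the beta isoform, and it is known to act on other isoforms and to lower phosphorylation in the AKT pathway at higher concentrations. RNA levels do not measure kinase activity.

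The layout of the arrays limits every value that follows. By the positions of their spots, the 3 controls shared a slide with Go 1, and the 3 enzastaurin arrays shared another with Go 2, so for the 2 groups compared here slide and treatment cannot be told apart. The Go group alone spans the slides. With the slide as a block, the fit therefore rests on the difference between Go 2 and Go 1 for what the slide adds. Go 1 held place 4 of 4 along its slide and Go 2 place 1, again by spot positions. That difference therefore also holds place on the slide and the difference between 2 single samples, and these cannot be told apart. The arrays had 45220 spots each, median foreground intensities of 72.0 to 93.0, and 52.1% to 57.3% of probes above background. The controls were also further apart than the treated arrays. On the first principal component (76.4% of variance) control 1, 2 and 3 lay at -48.2, -40.6 and -20.9. The enzastaurin arrays lay between 27.4 and 30.8, Go 1 at 0.2 and Go 2 at 22.6. Along each slide, from place 1 to place 4, these values rose from array to array. The replicate numbers of the controls and of the enzastaurin arrays run in the same order, and what place adds was not tested. Across 12780 genes, the difference of control 1 from control 3 and the difference of the mean enzastaurin value from control 2, which share no array, had a correlation of -0.62, so control 3 lay towards the enzastaurin arrays. The 6 measurable spike-in probes, which do not come from the cells, differed between control and enzastaurin by -0.32 to 0.19 on the log2 scale. Go 2 read highest of all arrays on each of these 6 probes. Its widest gap from Go 1 was 13.68 against 12.84, and its narrowest 15.32 against 15.07. The fit with the slide as a block rests on these 2 arrays, and what the gap does to it was not tested.

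The cells carried the RNA of the labelled type. All 13 keratinocyte markers tested, of 14 listed, were above background on every control and enzastaurin array. KRT5, a basal keratin, had a mean log2 intensity of 13.89 ± 0.16 (SD, n = 3) in controls and 14.08 ± 0.12 with enzastaurin, and the sum of the linear intensities of the list was 67800 to 84600 and 71800 to 74800. Of 8 fibroblast markers 3 were tested, and their summed intensity was 279 to 286 in controls and 305 to 324 with enzastaurin. Of 8 leukocyte markers 5 were tested, with sums of 1240 to 1400 and 1900 to 2060, and HLA-DRA, an MHC class II chain that epithelial cells can also express, was the one that rose. Of 6 endothelial markers 3 were tested, with sums of 342 to 410 and 300 to 315. PTPRC, PECAM1 and COL1A2, which define leukocytes, endothelium and fibroblasts, had no probe of that name above background on 2 arrays. The same holds for the keratin KRT6A, and a missing probe is not told from a missing signal. Among the keratinocyte markers 3 rose and 3 fell, among them EPCAM, an epithelial adhesion molecule, which rose by 1.55 (1.17 with the slide as a block), and TP63, the p63 factor of basal cells, which fell by 0.76. The part of other cell types in the results was not tested.

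Enzastaurin-treated and control cells differed in the measured signal of most genes, mostly by little. At an adjusted p under 0.05 in limma (Benjamini-Hochberg over 12780 genes), 7028 genes (55.0%) differed, 2312 higher (18.1%) and 4716 lower (36.9%) with enzastaurin. The counts of every gene list below are to be read beside these shares of all genes. Of the 7028 genes, 3240 differed by at least 0.5 on the log2 scale. Of these, 773 (6.05%) differed by at least 2-fold, 401 higher (3.14%) and 372 lower (2.91%). Control and enzastaurin arrays had no overlap for 8800 genes (68.9%). Quantile normalisation left the median gene at -0.14 on the log2 scale. When arrays were instead shifted to a common median, 3554 genes were higher and 2163 lower, and when shifted to a common 75th percentile, 2013 were higher and 5296 lower. The balance of rises against falls is therefore set by the scaling, and gene groups are described below by their median relative to that of all genes. With the slide as a block 547 genes (4.28%) passed, and 417 of them (3.26% of all tested) had also passed, in the same direction, without it. In what follows a value in the block is one that passed there, unless an adjusted p is given with it, and a gene of the lists given no such value did not pass. Without control 1 and 2, leaving control 3 as the only control, which is assumed to vary like the other groups, 2574 genes passed.

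The values of the largest differences followed the slide within the Go group. Of the 773 genes called at 2-fold 512 had 1 tested probe, much the same share as the 8445 of 12780 genes tested. NACA2, an intronless copy of a gene for a chaperone subunit of nascent proteins, had log2 intensities of 7.58, 8.38 and 9.11 in controls and 14.68, 14.58 and 14.51 with enzastaurin. Its Go arrays read 11.31 on the slide of the controls and 14.59 on the slide of the enzastaurin arrays. The ferritin pseudogene FTH1P12 read 8.09 to 9.33, 14.54 to 14.73, 11.74 and 14.83 in the same order. Both pairs of Go arrays thus stood apart by slide, with the array on the second slide at the enzastaurin level. With the slide as a block the differences passed at a smaller size, 2.96 in place of 6.23 for NACA2 and 2.87 in place of 5.96 for FTH1P12. H4C2, a replication-dependent histone gene, was not well above background on any control array and at least 52.5-fold higher with enzastaurin, with a difference of 1.88 in the block. PABPC3, an intronless copy of a poly(A)-binding protein gene, rose by 5.36, and by 4.30 in the block. A probe to an intronless or processed copy can also take up RNA from its parent gene, so these names are uncertain. Among 144 tested genes that the reference annotates as pseudogenes, 19 (13.2%) were at least 2-fold higher, beside 3.14% of all genes, and 3 were at least 2-fold lower.

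The largest falls had the same pattern. GNG8, a G protein gamma subunit, read 13.70, 13.86 and 12.82 in controls and 6.40, 6.42 and 6.27 with enzastaurin. Its Go arrays read 11.52 and 6.65, and the difference was -7.10, or -2.23 in the block. SOX17, an endodermal and endothelial transcription factor, fell by 3.89 and PTGDS, a prostaglandin D synthase, fell by 3.86, each from 1 tested probe. Over the 12 largest rises and 12 largest falls, the sign of Go 2 minus Go 1 was that of enzastaurin minus control in 22 of 24 genes, and the median absolute difference between the Go arrays was 1.64. Over the 773 genes called at 2-fold it was the same in 688 (89.0%), with a correlation across genes of 0.80, beside 65.5% and 0.54 for all genes tested. These genes were also more variable among the controls, with a median range of 0.59 against 0.22 for all genes.

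**Figure D1:**
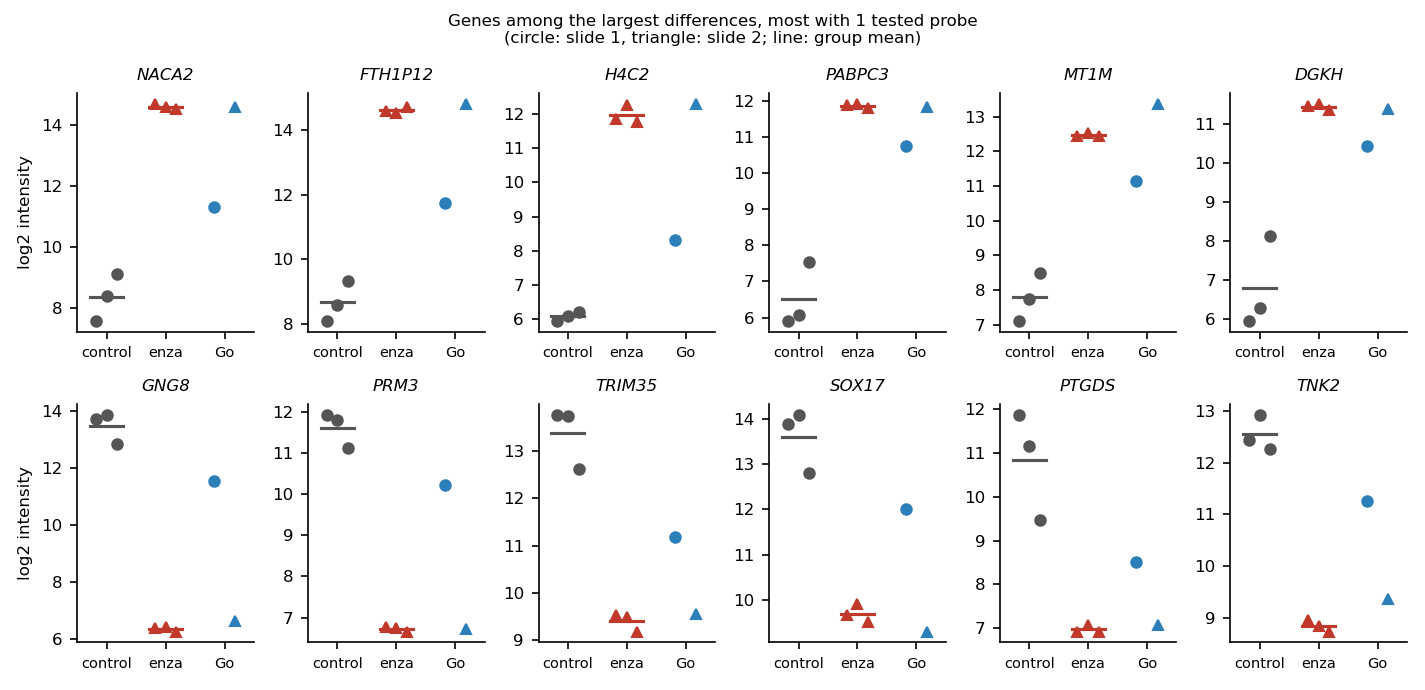
Log2 intensity (vertical axis, each panel on its own scale) on the 3 control, 3 enzastaurin and 2 Go arrays for 6 of the largest rises (top) and 6 of the largest falls (bottom); lines are the means of control and enzastaurin arrays, circles slide 1 and triangles slide 2. In each panel the Go triangle lies near the enzastaurin arrays and the Go circle between the groups or nearer the controls.

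**Figure D2:**
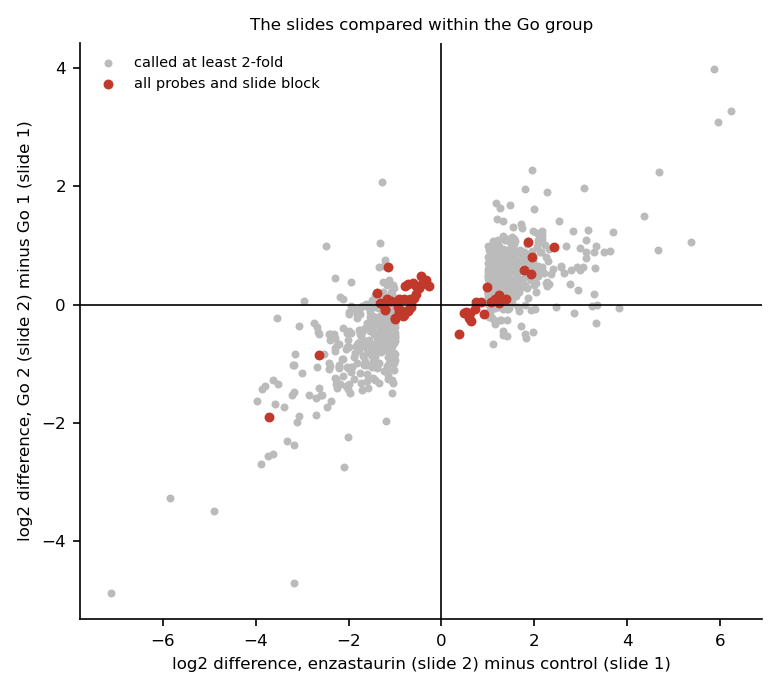
Log2 difference of Go 2 from Go 1 (vertical axis) against that of enzastaurin from control (horizontal axis), for 773 genes called at 2-fold (grey) and 55 genes with agreeing probes that passed in the slide block as well (red). The grey points run along the diagonal (r = 0.80), and most red points lie near 0 on the vertical axis.

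Several probes were tested for 4335 genes. All tested probes were called in the same direction for 646 genes (14.9%), 205 higher and 441 lower. Of the 261 such genes called at 2-fold, all probes passed the same way for 77, and 106 had a probe with the opposite sign. Without control 2 or any 1 of the enzastaurin arrays the count of agreeing genes was 361 to 376. In 15 genes, 9 higher and 6 lower, every probe differed by at least 2-fold. Among called genes with several probes, the share whose probes agreed was 24.0% where the brightest probe differed by under 0.5, 30.3% from 0.5 to 1, 29.1% from 1 to 2 and 31.0% at 2 or more. Among the genes with agreeing probes, large rises were of GALNT3, a glycosyltransferase that starts mucin-type O-glycans, TMEM158, a gene known to be induced by RAS, and LRP8, a lipoprotein receptor. GALNT3 rose by 3.30 with its brightest probe and by 0.54 with the other, but its controls read 8.26, 8.87 and 10.85, a range of 2.59. With the slide as a block GALNT3 did not pass (limma adjusted p = 0.17). TMEM158 rose by 2.99 and by 0.43 with its other probe. LRP8 rose by 2.27 and by 0.65, but its controls read 6.60, 7.44 and 8.73, a range of 2.13. Among the falls were TNK2, a non-receptor tyrosine kinase, by 3.70 and 0.31 with its 2 probes, FOXE1, a transcription factor, by 2.64 with its brightest and 0.72 with its least changed probe, and NKD2, an inhibitor of Wnt signalling, by 2.56 and 0.23. TNK2 fell by 1.81 in the block. The FOXE1 controls read 10.81, 10.69 and 9.44, and FOXE1 did not pass in the block (limma adjusted p = 0.284).

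**Figure D3:**
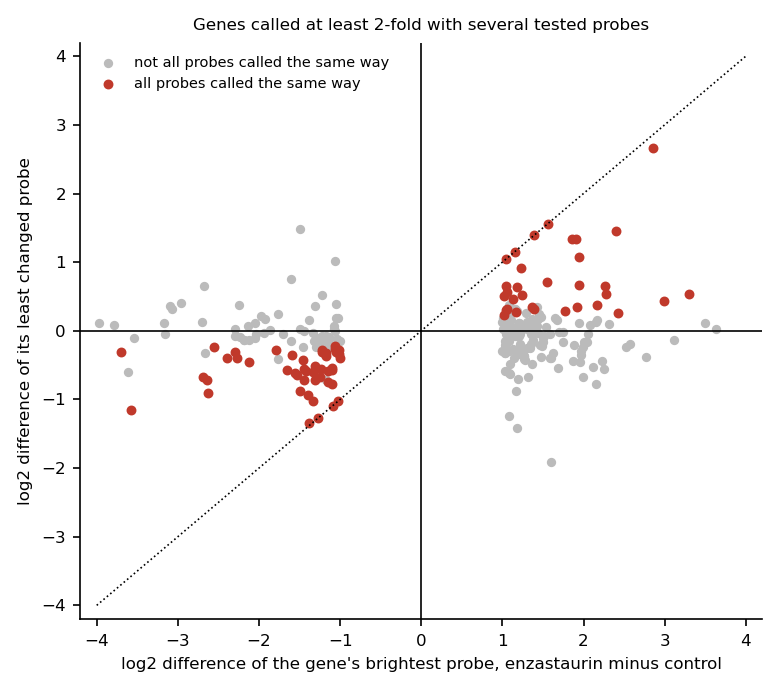
For each of 261 genes called at 2-fold with several tested probes, the log2 difference of the least changed probe (vertical axis) against that of the brightest probe (horizontal axis), enzastaurin minus control; the dotted line marks equal values. Genes whose probes were all called the same way are red (77 genes); most points lie far from the dotted line and 106 lie across 0.

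A stricter group, chosen after the values were seen, holds the genes whose 2 or more tested probes were all called the same way and whose brightest probe was called in the slide block too. It has 55 genes, 21 higher and 34 lower, which is 1.27% of the genes with several probes. In a separate fit of all probes with the slide as a block, every probe passed the same way for 10 genes, 3 higher and 7 lower. How many of those are among the 55 was not counted. The Go arrays of the 55 genes differed by a median of 0.17, and the sign of that difference matched that of enzastaurin minus control in 27 of them. The group was chosen partly through the Go arrays, so this is a description. The controls of these genes had a median range of 0.20. The mean of the Go arrays lay nearer the controls than the enzastaurin arrays in 32 of the 55 genes, a count not made over all genes. Go differed from enzastaurin in 36 of the 55, beside 8.33% of all genes tested. The choice through the Go arrays bears on both counts, so they too are a description.

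The falls of that group include a secreted protease and a cyclin. KLK10, a kallikrein-type secreted serine protease of squamous epithelium, read 11.10, 10.78 and 10.48 in controls and 9.39, 9.41 and 9.42 with enzastaurin. The groups did not overlap, and both Go arrays, at 10.77 and 10.97, lay among the controls. KLK10 fell by 1.38 (SE 0.142, limma adjusted p = 0.00033), by 1.35 with its other probe, and by 1.58 with the slide as a block. CCND2, the cyclin D2 that pairs with CDK4 and CDK6 in G1, read 9.52, 9.55 and 9.63 in controls and 8.42, 8.43 and 8.17 with enzastaurin. All 3 of its probes were lower, the least changed by 0.31, and its Go arrays lay just below the controls, at 9.43 and 9.36. CCND2 fell by 1.22 (SE 0.0892, adjusted p = 0.000144), and 1.16 in the block.

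BRD3, a bromodomain reader of acetylated histones, read 9.44, 9.59 and 9.48 in controls and 8.42, 8.43 and 8.38 with enzastaurin. It fell by 1.09 (SE 0.0715, adjusted p = 0.000134) and by 1.22 with its other probe, and its Go arrays read 9.39 and 9.45. RGCC, a regulator of the cell cycle that responds to complement and p53, read 9.03, 8.84 and 8.57 against 7.48, 7.49 and 7.48. It fell by 1.33 (SE 0.109, adjusted p = 0.000207), by 1.03 with its other probe. For both genes every enzastaurin array lay at least 1 log2 unit below every control.

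SLPI, a secreted inhibitor of neutrophil elastase that squamous epithelium makes in quantity, read 15.23, 15.26 and 15.17 in controls and 14.61, 14.40 and 14.66 with enzastaurin. It fell by 0.67 (SE 0.0864, adjusted p = 0.000621) and by 1.02 with its other probe. SLC3A2, the heavy chain of several amino acid transporters and a partner of integrins, read 13.76, 13.76 and 13.72 against 13.14, 12.98 and 13.01. It fell by 0.70 (SE 0.0719, adjusted p = 0.00033). In both genes the Go arrays, 15.26 and 15.36 for SLPI and 13.87 and 13.80 for SLC3A2, were at or above the controls. CAV1, the coat protein of caveolae, fell by 1.01, from 14.54 to 14.62 in controls to 13.49 to 13.63, and by 0.34 with its second probe. DBP, a clock-controlled transcription factor, fell by 1.22 and by 0.28 with its second probe, and its Go arrays, at 7.72 and 7.63, lay beside the enzastaurin arrays. DUSP2, a MAP kinase phosphatase, fell by 0.92 and by 0.27 with its second probe. POLD4, the small subunit of DNA polymerase delta, fell by 0.93 and by 0.88.

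The rises include genes of cell attachment and of signalling. COL17A1, the transmembrane collagen of hemidesmosomes that anchors basal keratinocytes, read 11.30, 11.19 and 11.49 in controls and 12.71, 12.60 and 12.83 with enzastaurin. It rose by 1.39 (SE 0.0982, adjusted p = 0.000144), and 1.29 in the block, although its second probe rose by only 0.32. The Go arrays lay between the groups, at 12.17 and 12.26. P4HA2, a collagen prolyl hydroxylase subunit, rose by 1.86 and by 1.34 with its other probe. Its Go arrays differed by slide, at 10.23 and 11.29, and the difference was 0.81 in the block.

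CREB1, the transcription factor that binds cAMP response elements, read 7.65, 7.55 and 7.61 against 8.37, 8.41 and 8.53 and rose by 0.84 (SE 0.0739, adjusted p = 0.000234). PTGS2, the inducible cyclooxygenase, read 7.12, 7.04 and 7.03 against 7.83, 7.82 and 7.79 and rose by 0.75 (SE 0.0655, adjusted p = 0.000229). Both genes were dim but above background on every array, and the Go arrays lay between the groups. IGF2R, which carries mannose 6-phosphate proteins to lysosomes, rose by 0.53 from a control range of 10.11 to 10.14. NREP, a regulator of TGF-beta responses, rose by 0.63 from 9.37 to 9.39. The Go arrays of IGF2R and NREP were below the controls, at 9.97 and 9.84 and at 9.29 and 9.01. TAOK3, a kinase of the MAP kinase cascade, rose by 1.23, and CCN3, a matricellular protein, by 0.60.

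**Figure D4:**
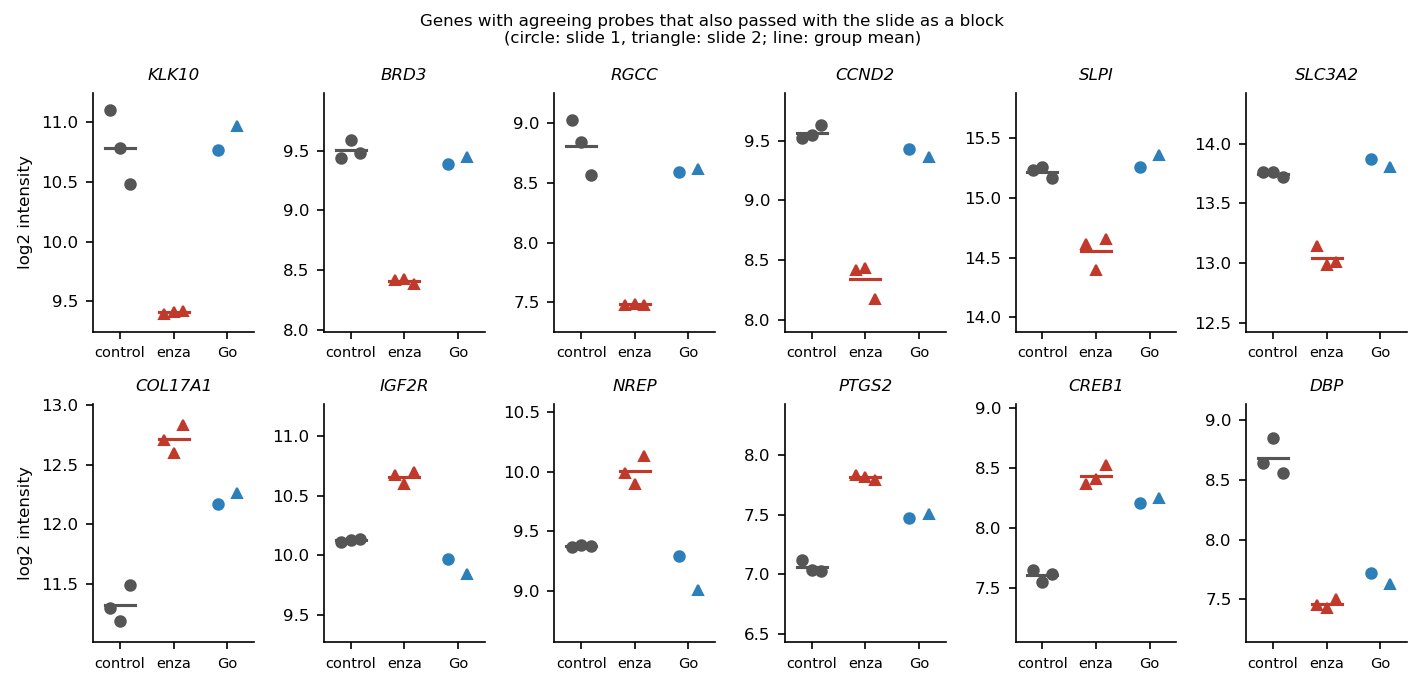
Log2 intensity (vertical axis, each panel on its own scale of at least 2 units) on the 3 control, 3 enzastaurin and 2 Go arrays for 12 of the 55 genes whose probes agree and that passed with the slide as a block; lines are means, circles slide 1 and triangles slide 2. Control and enzastaurin arrays do not overlap in any panel, and the Go arrays of KLK10, BRD3, CCND2, SLPI and SLC3A2 lie near the controls on both slides.

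Promoters of these genes were looked at because kinase C is known to act on genes through AP-1, and because CREB1 is itself among the rises. Of the 55 genes 44 have a promoter of 300 bases (250 before and 50 after the start) in the RefSeq table for GRCh38.p14. The pattern searched for AP-1 was TGANTCA, on either strand, with any base in the middle. It was in 3 of the 44 (6.82%) and in 7.76% of all 27305 promoters. These shares also count matches with A or T in the middle. The shorter core TGACG of cAMP response elements, on either strand, was in 13 (29.5%) and in 25.0% of all. Neither share stands apart from that of all promoters. Shown are SLC3A2 (chr11:62881449-62881748, plus strand) and NREP (chr5:111976883-111977182, minus strand), which match the AP-1 pattern. Also shown is PTGS2 (chr1:186680374-186680673, minus strand), which holds the shorter core. As shown, the middle base of the AP-1 match is C in SLC3A2 and T in NREP. Sequences run 5′ to 3′ on the strand of the gene, and capitals mark each match.
SLC3A2: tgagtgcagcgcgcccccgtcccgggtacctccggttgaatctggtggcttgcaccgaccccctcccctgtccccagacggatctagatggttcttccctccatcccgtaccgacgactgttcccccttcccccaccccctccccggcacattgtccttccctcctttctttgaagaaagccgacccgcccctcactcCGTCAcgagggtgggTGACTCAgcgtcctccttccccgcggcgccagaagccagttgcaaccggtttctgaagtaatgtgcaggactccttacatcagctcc
NREP: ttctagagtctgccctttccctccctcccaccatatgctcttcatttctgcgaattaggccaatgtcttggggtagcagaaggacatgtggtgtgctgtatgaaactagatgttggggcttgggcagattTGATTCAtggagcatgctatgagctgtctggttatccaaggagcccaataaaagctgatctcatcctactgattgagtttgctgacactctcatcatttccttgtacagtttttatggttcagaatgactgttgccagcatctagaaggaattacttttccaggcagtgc
PTGS2: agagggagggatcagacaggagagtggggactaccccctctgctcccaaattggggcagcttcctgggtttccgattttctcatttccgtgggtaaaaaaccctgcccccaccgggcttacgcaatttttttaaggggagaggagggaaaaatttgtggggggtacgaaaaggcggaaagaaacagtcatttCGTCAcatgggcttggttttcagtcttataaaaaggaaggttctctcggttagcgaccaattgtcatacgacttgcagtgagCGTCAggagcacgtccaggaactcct
With the start site as base 0, the AP-1 match begins at -37 in SLC3A2 and at -120 in NREP. The shorter core begins at -52 in SLC3A2 and at -58 and 24 in PTGS2. SLC3A2 fell and NREP and PTGS2 rose. A match is a description of letters and does not show binding.

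The protein kinase C and D genes themselves changed little. Of 15 listed 12 were tested, of which 2 rose and 5 fell, and none differed by 2-fold or passed with the slide as a block. The median of the list was -0.14, equal to that of all genes, and 0.09 below it after median or 75th percentile scaling. PRKCA, a conventional isoform, read 6.95, 6.81 and 6.81 in controls and 7.05, 7.01 and 7.14 with enzastaurin. It rose by 0.21 (SE 0.075, adjusted p = 0.0398), a call lost under several settings and turned to -0.01 after 75th percentile scaling. PRKCD, an isoform that needs diacylglycerol alone and is linked to keratinocyte differentiation, read 8.46, 8.38 and 8.18 against 7.99, 7.88 and 7.92, and fell by 0.41. PRKCH, the eta isoform of differentiating epithelium, fell by 0.42. The falls of PRKCD and PRKCH did not pass after median scaling. PRKD3, a protein kinase D, rose by 0.48 with 2 of its 3 probes.

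PRKCE differed by 0.09, PRKCI by 0.22, PRKCZ by -0.08 and PRKD2 by -0.13, with limma adjusted p of 0.381, 0.0733, 0.497 and 0.338. PRKCB, the isoform enzastaurin was developed against, and PRKD1 were not tested. They had no probe of that name above background on 2 arrays, which does not tell a missing probe from a missing signal. Among 18 genes of kinase C substrates and of diacylglycerol metabolism, 4 rose and 6 fell. DGKH, a diacylglycerol kinase, rose by 4.66 from 1 tested probe, with controls at 5.96, 6.29 and 8.12 and Go arrays at 10.45 and 11.38. PLCD1, a phospholipase C, fell by 1.15, with controls at 8.28, 7.73 and 6.86. The controls of both genes spread over more than 1 log2 unit.

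The AKT, GSK3 and mTOR pathway carries growth factor signals to protein synthesis. Of its 26 tested genes 6 rose and 6 fell, none by 2-fold. These are 23.1% each, beside 18.1% higher and 36.9% lower of all genes. The list median was 0.07 above that of all genes with quantile normalisation and 0.04 above it with the other scalings. EIF4EBP1, the repressor of cap-dependent translation, read 11.83, 11.93 and 11.85 against 11.29, 11.57 and 11.24 and fell by 0.50 (SE 0.0958, adjusted p = 0.00281). AKT1S1, an inhibitory subunit of mTOR complex 1, fell by 0.42. Neither passed after median scaling. TSC1, a subunit of the complex that restrains mTOR, rose by 0.55 and by 0.80 with the slide as a block, the one gene of the list that passed there. RPS6, the ribosomal protein S6, rose by 0.55. GSK3A fell by 0.19 and GSK3B by 0.22, and both turned to 0.16 and 0.05 after median scaling. AKT1 differed by -0.02 and RPS6KB1, the S6 kinase, by 0.16, with adjusted p of 0.857 and 0.156.

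Regulators of the G1 phase divided, with CCND1, CCND2 and CCNE1 lower and CCND3, CDKN1A and CDKN1B higher with 1 of 2 probes each. Of 20 tested genes 5 rose and 6 fell, and the list median was 0.19 above that of all genes (0.18 with the other scalings). Beside CCND2, CCND1 read 10.29, 10.33 and 10.31 against 9.67, 9.51 and 9.60. CCND1 fell by 0.72 (SE 0.0722, adjusted p = 0.000323), and 0.81 in the block, with 2 of 3 probes called. CCNE1, the cyclin E that opens S phase, read 11.16, 11.04 and 10.97 against 10.16, 10.33 and 10.13, and fell by 0.85, and by 0.77 in the block. The Go arrays of CCND1, at 10.16 and 10.26, lay near the controls, and those of CCNE1, at 10.60 and 10.52, between the groups.

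CDKN1A, the p21 inhibitor, read 9.39, 9.28 and 9.17 against 9.77, 9.66 and 9.71, and rose by 0.43 (SE 0.0822, adjusted p = 0.00276). The other CDKN1A probe differed by 0.09 and was not called. CDKN1B, the p27 inhibitor, rose by 0.64 with one probe while its other probe fell by 0.45. RB1, the retinoblastoma protein, rose by 1.03 (1.22 in the block) and CDK6 by 1.20, each with 1 of 2 probes called higher, and the second RB1 probe fell by 0.33. CCND3 rose by 0.53 with 1 of 2 probes.

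Of 39 tested DNA replication genes 4 rose and 17 fell, 43.6% falls beside 36.9% of all genes. The list median lay 0.10 below that of all genes with quantile normalisation and at 0.00 with the other scalings, and after median scaling 8 rose and 8 fell. MCM2, a helicase subunit, read 12.37, 12.28 and 12.26 against 11.44, 11.61 and 11.39, and fell by 0.82. POLA1, the catalytic subunit of DNA polymerase alpha, fell by 0.80, and ORC6, of the origin recognition complex, by 1.38 with 2 of 3 probes. Among 36 mitosis genes 7 rose and 8 fell, with a list median 0.19 above that of all genes (0.31 with the other scalings), and after median scaling 19 rose and 2 fell. KIF20A, a kinesin of cytokinesis, fell by 0.76 and CCNA2, the cyclin of S phase and G2, by 0.66, while CDK1, the mitotic kinase, rose by 0.79. MKI67, a marker of cycling cells, read 8.92, 8.96 and 8.99 against 9.30, 9.17 and 9.04, a difference of 0.21 with adjusted p = 0.0523.

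Outputs of ERK signalling went both ways. Of 17 tested 2 rose and 5 fell (29.4%, beside 36.9% of all genes), with a list median 0.04 above that of all genes, or 0.08 below it with the other scalings. DUSP6, the cytoplasmic ERK phosphatase, read 9.67, 9.46 and 9.43 against 8.64, 8.66 and 8.81. DUSP6 fell by 0.82 (SE 0.101, adjusted p = 0.000536), and its Go arrays, at 9.63 and 9.37, lay among or near the controls. MYC read 12.23, 12.23 and 12.45 against 11.69, 11.55 and 11.58, and fell by 0.70 and by 0.80 with its other probe, while its Go arrays both read 12.51. ETV4, an ETS factor, fell by 0.42. PHLDA1, another gene of the list, rose by 0.78 with 2 of 4 probes. CCND1 of this list is described above.

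Immediate early genes went both ways. Of 21 tested 4 rose (19.0%, beside 18.1% of all genes) and 10 fell (47.6%, beside 36.9%). The list median was 0.14 below that of all genes, or 0.05 below it with the other scalings. KLF10, a transcription factor induced by TGF-beta, read 7.61, 7.45 and 7.47 against 9.04, 9.0 and 9.08. It rose by 1.53 (SE 0.0941, adjusted p = 0.000104), and 1.22 in the block, from 1 tested probe. JUNB, an AP-1 subunit, rose by 1.43 and by 0.82 in the block, with 1 of 2 probes called. MAFF, a small MAF factor, fell by 1.24 and by 1.91 in the block.

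ErbB receptors and ligands, which carry epidermal growth factor signals, had more falls than rises with quantile normalisation, but not after median scaling. Of 10 tested 2 rose and 7 fell (70.0%, beside 36.9% of all genes), and the list median was 0.34 below that of all genes (0.29 below with the other scalings). After median scaling 3 rose and 2 fell. NRG1, a ligand of ERBB3 and ERBB4, read 12.22, 12.25 and 12.32 against 10.91, 11.13 and 10.55. NRG1 fell by 1.40 (SE 0.146, adjusted p = 0.000354) and all 3 probes fell, the least changed by 0.93. ERBB2 fell by 0.60. EGFR read 10.01, 9.86 and 10.00 against 9.39, 9.31 and 9.40 and fell by 0.59, but its Go arrays read 9.97 and 9.29, and the difference was 0.09 with the slide as a block (adjusted p = 0.716). HBEGF, a ligand of EGFR, rose by 0.43 with 1 of 2 probes and by 0.92 in the block.

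Several enzymes of cholesterol synthesis rose, and the regulator of the pathway fell. Of 29 tested genes 9 rose (31.0%, beside 18.1% of all genes) and 7 fell, and the list median was 0.24 above that of all genes (0.32 with the other scalings). SQLE, squalene epoxidase, read 11.50, 11.21 and 11.48 against 12.35, 12.42 and 12.56. It rose by 1.04 (SE 0.103, adjusted p = 0.000301), and 1.21 in the block, and its Go arrays, at 11.59 and 11.42, lay with the controls. HMGCS1, which makes the substrate of HMG-CoA reductase, rose by 0.73 and by 0.55 with its 2 probes, and by 0.71 in the block, where its adjusted p was 0.056. ACAT2, the cytosolic thiolase, rose by 0.94 and by 0.76 with its 2 probes. SREBF2, the regulator of the pathway, fell by 0.40, a call lost after median scaling. SCD, the fatty acid desaturase, rose by 2.52 with 1 of 3 probes, and another of its probes differed by -0.23.

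Genes of the cornified envelope and of the squamous surface fell at a share near that of all genes, and 1 of the falls passed in the block. Of 27 tested terminal differentiation genes 2 rose, 11 fell (40.7%, beside 36.9% of all genes) and 14 did not pass, with a list median 0.09 below that of all genes (0.16 below with the other scalings). After median scaling 4 rose and 5 fell. IVL, involucrin of the cornified envelope, read 7.89, 7.58 and 7.40 against 6.91, 6.95 and 6.89. IVL fell by 0.71 (SE 0.118, adjusted p = 0.00161). Beside KLK10, KLK5, another epidermal kallikrein, fell by 0.68, and CDSN, corneodesmosin, by 0.68. CALML3, a calmodulin-like protein of epithelium, rose by 1.29. The Go arrays of IVL, at 6.99 and 7.11, lay near the enzastaurin arrays, unlike those of KLK10.

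PI3, the elastase inhibitor elafin, fell with enzastaurin and lay with the controls on both Go arrays. It read 11.81, 11.68 and 11.17 in controls and 9.55, 9.82 and 9.43 with enzastaurin. PI3 fell by 1.95 (SE 0.182, adjusted p = 0.000262), and 2.34 in the block, from 1 tested probe, and its Go arrays read 11.50 and 11.88. S100P, a calcium-binding protein, fell by 0.79 and by 1.21 in the block. In the list of S100 and antimicrobial proteins to which both and SLPI belong, 6 of 20 rose and 6 fell (30.0% each). Of 17 keratins 3 rose (17.6%) and 5 fell (29.4%), where 18.1% and 36.9% of all genes did. KRT23, a type I keratin, read 9.15, 8.95 and 8.64 against 6.82, 6.80 and 6.79. KRT23 fell by 2.11 (SE 0.12, adjusted p = 0.000104), and 2.19 in the block, from 1 tested probe, and its Go arrays read 8.14 and 8.23. KRT7, a simple-epithelial keratin, was not well above background on any control array and was at least 1.71-fold higher with enzastaurin. Its difference was 0.98, and 1.69 in the block.

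Adhesion genes changed in both directions. Of 18 hemidesmosome and basement membrane genes 5 rose and 5 fell (27.8% each, beside 18.1% higher and 36.9% lower of all genes). LAMB3 and LAMA3, chains of laminin-332 that bind hemidesmosomes to the basement membrane, rose by 0.41 and 0.46, and the second LAMA3 probe differed by -0.22. Of 28 integrin and focal adhesion genes 7 rose (25.0%) and 10 fell (35.7%, near the share of all genes). ITGB5, an integrin beta chain, read 8.90, 8.87 and 8.91 against 8.25, 8.21 and 8.21, fell by 0.67 and by 0.55 in the block, and its Go arrays read 8.24 and 8.13. CLDN7, a tight junction protein, fell by 0.89. Of 18 mesenchymal genes 8 rose (44.4%, beside 18.1% of all genes) and 5 fell (27.8%, beside 36.9%), and no rise passed in the block. FN1, fibronectin, rose by 0.85 and SNAI2, a transcription factor of epithelial-mesenchymal transition, by 0.73.

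Of 25 tested YAP and TAZ targets and regulators 1 rose and 15 fell (60.0%, beside 36.9% of all genes), and the list median was 0.18 below that of all genes (0.15 below with the other scalings). After median scaling 2 rose and 5 fell. AXL, a receptor tyrosine kinase, read 10.25, 10.32 and 10.55 against 9.68, 9.69 and 9.58, and fell by 0.72, and by 0.93 in the block. ARHGEF17, a guanine nucleotide exchange factor, fell by 0.76, and by 0.72 in the block. CCN1, a matricellular protein, fell by 0.83 with 2 of 3 probes. Of 28 Wnt pathway genes 4 rose and 12 fell (42.9%), with a list median 0.02 below that of all genes (0.09 below with the other scalings). WNT3A fell by 0.97, and by 1.14 in the block.

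Proteases that act on the matrix divided as well. Of 25 tested metalloproteases and inhibitors 6 rose and 7 fell. MMP7, matrilysin, read 11.36, 11.38 and 11.25 against 12.34, 12.21 and 12.13. MMP7 rose by 0.90 (SE 0.0836, adjusted p = 0.000262), and 1.04 in the block, while its Go arrays, at 10.75 and 10.61, lay below the controls. MMP9, a gelatinase, fell by 0.69 and TIMP2, an inhibitor, fell by 0.72 and by 0.95 in the block. In the plasminogen system 3 of 12 rose (25.0%) and 5 fell (41.7%). PLAT, tissue plasminogen activator, rose by 0.58 and by 0.85 in the block, and PLAU, urokinase, fell by 0.76.

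Secreted inflammatory genes changed in both directions. Of 31 tested chemokines and cytokines 10 rose (32.3%, beside 18.1% of all genes) and 6 fell, with a list median 0.19 above that of all genes, or 0.02 above it with the other scalings. CXCL1, a neutrophil chemokine, read 14.77, 14.74 and 14.77 against 15.55, 15.42 and 15.48. CXCL1 rose by 0.72 (SE 0.0687, adjusted p = 0.000262), and 0.65 in the block. CXCL8, interleukin 8, rose by 3.32, but its controls read 6.04, 6.94 and 8.98, and the block gave an adjusted p of 0.118. CCL2, a monocyte chemokine, fell by 0.82.

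Of 37 interferon response genes 6 rose, 6 fell (16.2% each, beside 18.1% higher and 36.9% lower of all genes) and 25 did not pass. After median scaling 18 rose and 1 fell. MX1, an antiviral GTPase, read 12.69, 12.60 and 12.78 against 14.52, 14.02 and 14.41, rose by 1.63 (SE 0.155, adjusted p = 0.000263), and 1.16 in the block. RSAD2, viperin, rose by 1.13 and by 0.47 with its other probe. The Go arrays of MX1, at 14.03 and 14.50, lay with enzastaurin on both slides. Of 23 antigen presentation genes 6 rose, 1 fell and 16 did not pass, with a median 0.25 above that of all genes (0.29 with the other scalings). HLA-DRA rose by 1.11 and did not pass with the slide as a block. Probes to HLA genes can take up RNA of related genes.

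Stress and organelle lists were mixed. GPNMB, a glycoprotein of lysosome-related compartments, read 8.90, 8.86 and 8.99 against 10.00, 10.07 and 10.29. It rose by 1.20 (SE 0.0899, adjusted p = 0.000158), and 1.21 in the block, from 1 tested probe, and its Go arrays both read 8.80. NEU1, lysosomal sialidase, rose by 0.67 and by 0.85 in the block. The lysosome and autophagy list as a whole had 7 rises and 7 falls among 37 genes. Of 29 genes of the ATF4 response to amino acid shortage 2 rose and 11 fell, and the list median was 0.05 below that of all genes but 0.01 above it with the other scalings. After median scaling 7 of these genes rose and 2 fell. ATF4 fell by 0.57 with each of its 2 probes, CBS, cystathionine beta-synthase, fell by 1.10 and 0.57 with its 2 probes, and SLC3A2 belongs to this list. BAG3, a co-chaperone, rose by 1.15 with 1 of 2 probes and by 0.95 in the block. Of 20 heat shock genes 7 rose (35.0%, beside 18.1% of all genes) and 2 fell (10.0%, beside 36.9%).

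In the apoptosis lists, 1 of 18 BCL2 family genes rose and 8 fell (44.4%, beside 36.9% of all genes), with a median 0.14 below that of all genes (0.15 below with the other scalings). After median scaling 4 rose and 3 fell. BOK, a pro-apoptotic member, fell by 0.59 and by 0.96 with its 2 probes, and by 0.71 in the block. Of 23 caspases and inhibitors of apoptosis 5 rose (21.7%, beside 18.1% of all genes) and 9 fell (39.1%).

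Targets of the aryl hydrocarbon receptor, a sensor of many aromatic drugs, did not move as a group, with 2 of 12 higher and 2 lower. CYP1B1 read 9.59, 9.86 and 10.07 against 10.96, 10.92 and 11.15, and rose by 1.17 (SE 0.131, adjusted p = 0.0004). CYP1A1 differed by 0.02 (adjusted p = 0.848), with enzastaurin arrays not well above background, while its Go arrays read 9.74 and 9.45. VEGFA, the angiogenic factor whose signalling involves kinase C, read 8.63, 8.51 and 8.46 against 8.74, 8.51 and 8.56. It differed by 0.07 (adjusted p = 0.632).

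Replication-dependent histone genes rose most often of the lists in the plot of shares. Of 28 tested 15 rose (53.6%) and 1 fell, and the list median was 0.45 above that of all genes (0.56 with the other scalings). Of the 15 rises 5 also passed in the block, as did 186 of the 2312 rises over all genes. Several probes were tested for 5 of these histone genes, and they agreed in 1. H3C8 read 7.90, 7.98 and 7.98 against 11.38, 11.44 and 11.54. It rose by 3.50 (SE 0.188, adjusted p = 0.000104), and 2.61 in the block, but its other probe differed by 0.11. H1-4, H2AC8 and H2BC8 rose by 3.10, 1.85 and 1.48, and by 2.31, 1.14 and 1.30 in the block, each from 1 tested probe. Their Go arrays read 9.27 and 10.06, 9.44 and 10.15, and 9.26 and 9.43, on the enzastaurin side of the controls on both slides. Histone genes are near copies of one another, so which gene the RNA came from is uncertain. Of 47 cytoplasmic ribosomal protein genes 14 rose, 3 fell and 30 did not pass, with a list median 0.17 above that of all genes (0.04 with the other scalings). After 75th percentile scaling 12 rose and 12 fell. RPS23 rose by 2.07 (0.97 in the block) and RPL37 by 1.91, but the controls of RPL37 read 11.86, 12.56 and 13.20, and both families have many processed copies.

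**Figure D5:**
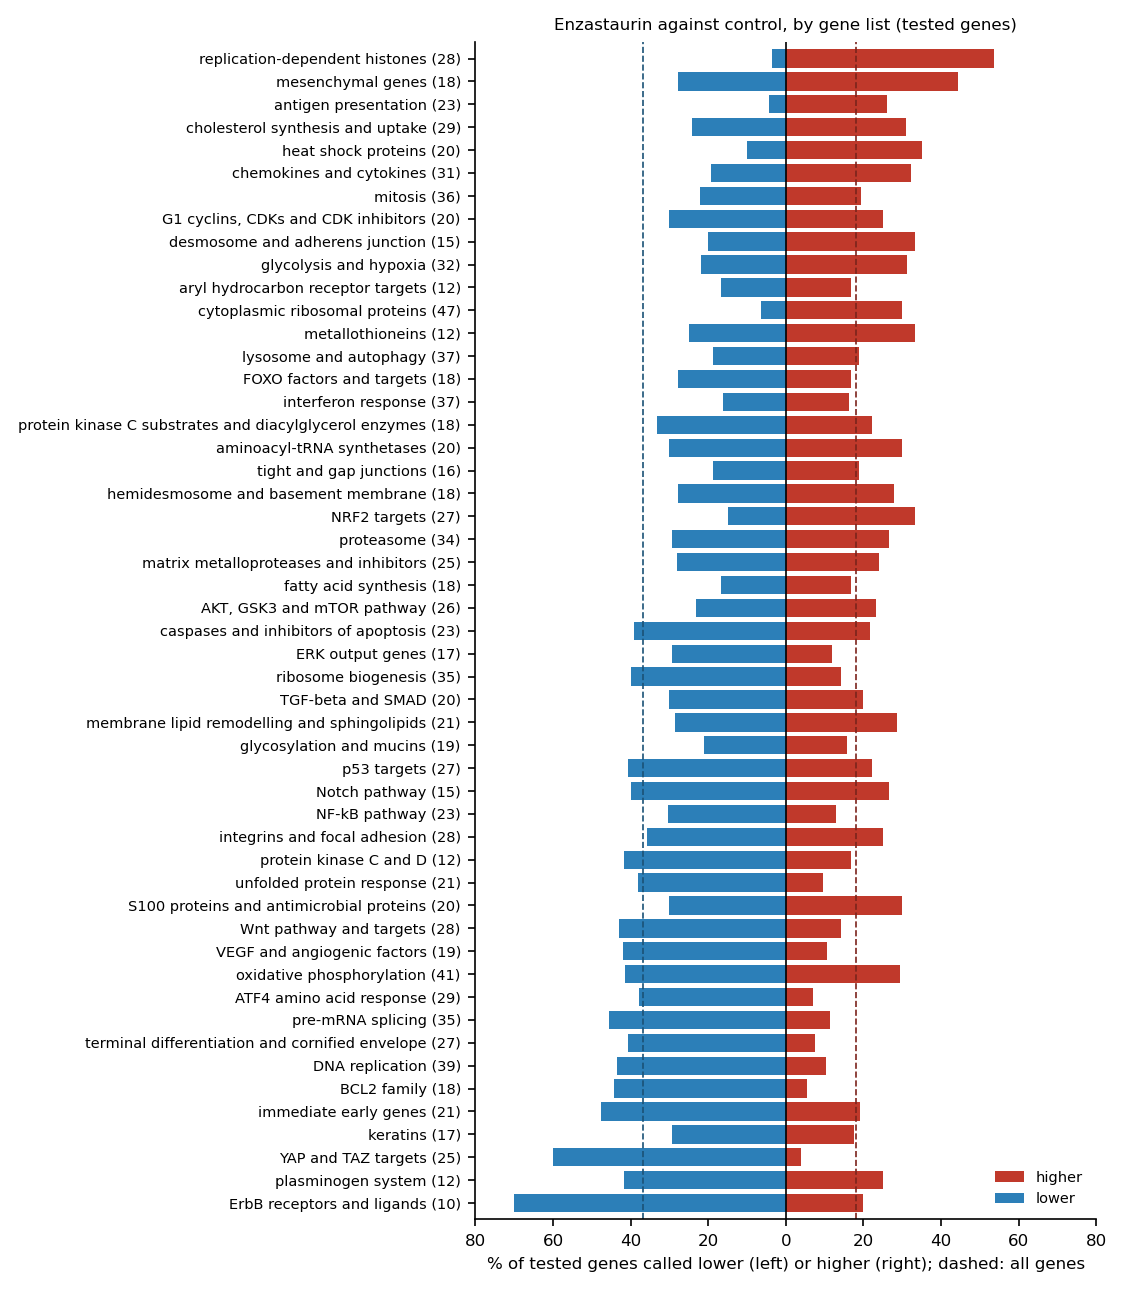
Share of the tested genes of each list (number in brackets) called higher (red, right) or lower (blue, left) with enzastaurin at an adjusted p under 0.05 in limma, in order of the list median; dashed lines mark the shares over all genes, 18.1% higher and 36.9% lower. Histone genes have the highest share of rises (53.6%), and YAP and TAZ targets (60.0%) and ErbB genes (70.0%) the highest shares of falls.

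Go, the other inhibitor, is the only group with an array on each slide. Go 1 shared the slide of the controls and Go 2 that of the enzastaurin arrays. Each comparison with Go therefore holds part of the slide difference. Enzastaurin and Go differed in 1065 genes (8.33%) and Go and control in 4060 (31.8%). The first count was 244 to 380 without any 1 enzastaurin array and 510 without control 2. Without Go 2 that comparison would lie wholly between the slides. The second comparison shares its controls with that of enzastaurin. Among genes named above, MMP7 was lower with Go than with enzastaurin by 1.55 (adjusted p = 0.000292) and GPNMB by 1.32 (adjusted p = 0.000693). PI3 was higher with Go than with enzastaurin by 2.09, KLK10 by 1.46 and MYC by 0.90.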

How the data were processed

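Per the labels, total RNA of serum-starved CAL-27 cells was labelled with Cy3 and hybridised to single-colour arrays. The deposited scanner tables give, per the file headers, foreground and background intensity for each spot, with its percent of saturated pixels and a score of signal over noise; any earlier step is not given in the sources used here. The channel named in the file headers has a red wavelength, while the labels name Cy3, and this was not resolved. The annotation columns run end for end against the spots and were turned. Turned, the probes' rank correlation with the authors' deposited value table (background-subtracted intensity with a floor of 0.5) was 0.9904 to 0.9937, and 0.0072 to 0.0130 as deposited. Of 41000 probes 27152 received a symbol through the RefSeq table.

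Intensities were background-corrected with normexp (offset 50), quantile normalised and put on the log2 scale. A probe was tested if its signal-to-noise score exceeded 3 on at least 2 arrays, and each gene took its brightest probe on average. The 3 groups were fitted together in limma 3.58.1 (R 4.3.3) with Benjamini-Hochberg adjustment over 12780 genes and a threshold of 0.05. The level of a fold bound is the lowest value above background on each array. Alternatives were other scalings, background subtraction with a floor of 16, other dim-probe filters, the mean of a gene's probes, the deposited value table, only the control and enzastaurin arrays, the slide or the replicate number as a block, and each array left out. On simulated data with 200 of 12780 genes changed, the test recovered 53.9%, 90.0% and 98.2% of log2 changes of 0.5, 1 and 2, and 5.30% of its calls were false; that noise had no slide difference.

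Named genes are the 12 largest rises and 12 largest falls among called genes detected throughout 1 group or more and whose control and enzastaurin arrays did not overlap, the same among genes with several agreeing probes, up to 5 called members in each direction of each list, and 22 kinases, cyclin inhibitors and markers in any case; the text takes part of these. The 55 genes with agreeing probes that pass in the block were added after their values were seen. The comparison, gene lists and rules were chosen with earlier results of these data known. A few genes of the lists are left out of the text.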

Additional observations from a re-analysis of the deposited data

Results flagged for a closer look

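Probes without a gene symbol were left out of every comparison above. Of 6324 such probes that passed the filter, 3441 (54.4%) were called in limma, and 695 were at least 2-fold higher and 269 at least 2-fold lower with enzastaurin than in the control samples. With groups of 3 and 2 arrays, no array was tested for standing apart from its group.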

How the results depend on the processing

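The number of genes called (7028) was 5717 to 7504 under other scalings, filters, probe rules and the deposited value table, 7701 with only the control and enzastaurin arrays, and 5349 to 7701 with 1 array left out. It was 547 with the slide as a block and 2574 with control 3 as the only control, a setting chosen after seeing the data. The 773 genes called at 2-fold became 1676 after background subtraction, 1778 with the authors' value table, 237 in the slide block, 420 with control 3 alone and 669 to 986 with 1 array left out. Genes with several agreeing probes (646) numbered 10 in the slide block, where the probes were also fitted with the block, 87 with control 3 alone, and 361 to 777 with 1 array left out (361 to 376 without control 2 or any 1 enzastaurin array). The cause of these shifts was not tested. The count for Go against enzastaurin (1065), whose alternatives were all added after seeing the data, was 527 with the replicate block, 244 to 1699 with 1 array left out (244 to 380 without any 1 enzastaurin array, 510 without control 2, 1699 without Go 2), and 777 to 1139 under the other settings run. Of the 125 named genes called, 115 kept their call after median scaling and 59 in the slide block. The log2 difference of PRKCA turned to -0.01 after 75th percentile scaling, those of GSK3A and GSK3B to 0.16 and 0.05 after median scaling, and that of EGFR to 0.09 in the slide block.

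Deviations of same-numbered control and enzastaurin arrays from their group means correlated at 0.085, 0.011 and 0.154. Those of differently numbered arrays correlated at -0.175 to 0.198. With 3 arrays a group, these values cannot tell whether the replicate numbers pair the samples. The replicate block cost 2 of the 125 named genes their call. With it 6924 genes were called, 773 at 2-fold, and 593 had agreeing probes.

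Precision is limited by the 3 arrays a group, by the slides, and by dim signal: where a group has no array above background the fold is a bound.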

Other observations

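Genes of energy metabolism divided. Of 41 tested genes of oxidative phosphorylation 12 rose and 17 fell, with a median 0.03 below that of all genes, or 0.02 above it after median scaling. NDUFS8, an iron-sulfur subunit of complex I, read 13.65, 13.50 and 13.30 in controls and 12.60, 12.55 and 12.41 with enzastaurin, and fell by 0.96 (SE 0.1, limma adjusted p = 0.000352), and by 0.94 with the slide as a block. SDHA, the catalytic subunit of succinate dehydrogenase, rose by 0.56 with 1 of 2 probes, and by 0.92 in the block. Among 32 genes of glycolysis and the hypoxia response 10 rose and 7 fell. LDHA, lactate dehydrogenase A, read 13.53, 13.87 and 14.18 against 14.68, 14.52 and 14.69, and all 3 of its probes rose. The arrays of LDHA did not overlap, but its difference of 0.77 did not pass in the block (adjusted p = 0.218). PFKM, a phosphofructokinase, fell by 0.69.

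Of 35 pre-mRNA splicing genes 4 rose and 16 fell (45.7%, beside 36.9% of all genes), but after median scaling 8 rose and 5 fell, and the list median was 0.06 below that of all genes, or 0.09 above it. Of 34 proteasome genes 9 rose and 10 fell. PRPF31, a protein of the spliceosomal tri-snRNP, read 12.03, 12.02 and 11.90 against 11.18, 11.21 and 11.21. PRPF31 fell by 0.79 with 1 of 2 probes and by 0.99 in the block, and its Go arrays, at 11.04 and 11.24, lay with enzastaurin on both slides. Of 27 NRF2 targets, a set known for defence against oxidants, 9 rose (33.3%, beside 18.1% of all genes) and 4 fell (14.8%). AKR1C1, an aldo-keto reductase with close paralogs that make its name uncertain, read 9.13, 9.11 and 9.17 against 10.07, 10.35 and 10.03, and rose by 1.01 with 2 of 3 probes. Of 27 p53 targets 6 rose (22.2%) and 11 fell (40.7%), and GADD45B, a stress-response gene, fell by 0.78 and by 1.11 with its 2 probes. Its Go arrays, at 9.76 and 9.61, were above or at the top of the controls. In the Notch pathway 4 of 15 rose and 6 fell. JAG1, a ligand, rose by 0.52 and DLL1, another ligand, fell by 0.44, each from 1 probe and neither passing in the block.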
